A study of Mus musculus with 4 samples.

Results

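Integrins are the receptors by which fibroblasts hold on to the extracellular matrix. Each is a dimer of an alpha and a beta subunit. Inside the cell, talins and kindlins bind the tail of the beta subunit and switch the receptor on, and a focal adhesion then assembles from adaptor proteins such as paxillin, vinculin and tensin, the kinases FAK and Src, and small GTPases, which set actin assembly and contraction. Fibroblasts depend on this machinery for spreading, migration and matrix remodelling.

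The genes described here are 52 of 55536 Ensembl genes counted. They were taken by symbol: 18 integrin alpha subunits, 8 beta subunits and 26 named genes of focal adhesion and small GTPase signalling. The rule itself uses no measured value. All 52 were paired with an Ensembl ID and with a RefSeq position in GRCm38.p6.

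Primary fibroblasts were cultured out of ear clips taken from C57BL/6 mice, kept in KN93, a calmodulin-dependent kinase inhibitor, for 48 h and transfected for another 24 h before RNA was taken. Cells in the AF357425-High and AF357425-Low states each gave 1 fibrillarin pulldown library and 1 library of whole-cell RNA, which makes 4 groups of 1 library. AF357425 is a C/D box small nucleolar RNA of the imprinted Dlk1-Dio3 locus, and fibrillarin is the methyltransferase that such RNAs guide. The sample characteristics name overexpression for High and inhibition for Low, whereas the treatment protocol describes transfection with AF357425 gapmers, which direct RNase H to their target RNA, or with a scrambled control. Which transfection stands behind each state is therefore not settled by the labels, and AF357425 itself had 0 reads in all 4 libraries. The series title names integrin signalling, and the comparison of the states asks whether its genes differ in cell RNA or in the RNA recovered with fibrillarin.

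With 1 library per group there is no replicate check, and no test between groups was run. Each interval given here is a 95% interval that covers counting error alone. Reads copied by PCR carry no molecular identifiers here, so they do not stand for separate molecules. State ratios are log2 values of AF357425-High over AF357425-Low after TMM scaling, which assumes that most genes do not differ. A gene was measured in a comparison when it averaged at least 1 CPM, the count scaled to gene-assigned reads of the library, over both libraries, and it was called higher or lower when its whole interval lay beyond 2-fold. In bulk RNA, fewer cells of a type and less RNA per cell cannot be told apart.

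Gene-assigned reads numbered 25857770 in the High and 27832061 in the Low pulldown, against 22082565 in High and 21693030 in Low whole-cell RNA. The mitochondrial ribosomal RNAs filled 63.4% and 59.8% of the pulldown reads, against 0.0926% and 0.0583% of the whole-cell reads. Fragments that fell on more than 1 gene and were left uncounted made up 9.38% and 8.54% of all pulldown fragments, against 1.05% and 1.09% in whole-cell RNA. The Wilson 95% intervals of these shares reach at most 0.0186 percentage points to either side. Of the 52 genes, 29 span a region that overlaps another annotated gene, and their reads are less certain because no source used here gives the strand setting of the counting.

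The fibroblast label was checked against 8 markers, all of which had reads in every library and which summed to 2205 and 2374 CPM in the AF357425-High and AF357425-Low pulldowns, against 6539 and 7168 CPM in whole-cell RNA. The 9 leukocyte markers summed to 1.35 and 1.94 CPM in the pulldowns, against 8.15 and 7.84 CPM in whole-cell RNA, with Cd52, Laptm5 and Cd3e at 0 reads in all 4 libraries. Of the 9, 3 were measured in whole-cell RNA: Cd68 with 71 and 56 reads in High and Low, Csf1r with 52 and 50 and Lyz2 with 53 and 50. The 4 platelet markers had 0 reads throughout. The 4 endothelial markers summed to 3.44 and 6.04 CPM in the High and Low pulldowns and 7.61 and 8.07 CPM in whole-cell RNA, and the 5 Schwann cell and melanocyte markers to at most 2.54 CPM in any library.

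In the pulldown, 1 of 39 measured members was lower in AF357425-High and none was higher, by these intervals. Over all 10736 genes measured there, 2.9% were called lower and 3.43% higher, so the members' count lies near the background; in either direction 6.32% of genes were called. The lower member was Itga10, a collagen receptor subunit. The median state ratio of the members was 0.03, beside -0.01 for all genes, and 84.6% of members lay within 1.5-fold by their point ratio, beside 67.1% of all genes. These 2 shares are not matched for depth, because 35 of the 39 members averaged at least 5 CPM, beside 6887 of the 10736 genes. The integrin subunits and the signalling genes had different centres: the 15 measured subunits had a median of -0.32 with 9 of 15 negative, and the 24 measured signalling genes had a median of 0.10 with 15 of 24 positive. These signs depend on the scaling. With library totals, which move the median of all genes by -0.29, 5 of 24 signalling genes and 2 of 15 subunits were positive and 70.4% of all genes were negative. The sign turned to negative for 14 members, Itga3, Itga8, Itga11, Itgb1, Ptk2b, Yes1, Vcl, Crkl, Zyx, Tns1, Git2, Rhoa, Rac1 and Cdc42.

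In whole-cell RNA, none of 42 measured members was called, where 0.111% of 13519 genes were called higher, 0.133% lower and 0.244% in either direction. The median of the members was -0.03, beside -0.01 for all genes. By their point ratios, 38 of 42 members lay within 1.5-fold. The 4 beyond it were the kinase gene Ptk2b and the subunit genes Itga7, Itga2b and Itgb4. With the line set at 1.5-fold, Ptk2b was the member called lower in whole-cell RNA, and Itga10 and Rhob were the members called lower in the pulldown. At that line 7.85% of all genes were lower and 7.71% higher in the pulldown (15.6% in either direction), and 0.57% were lower and 0.436% higher in whole-cell RNA (1.01%).

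**Figure D1:**
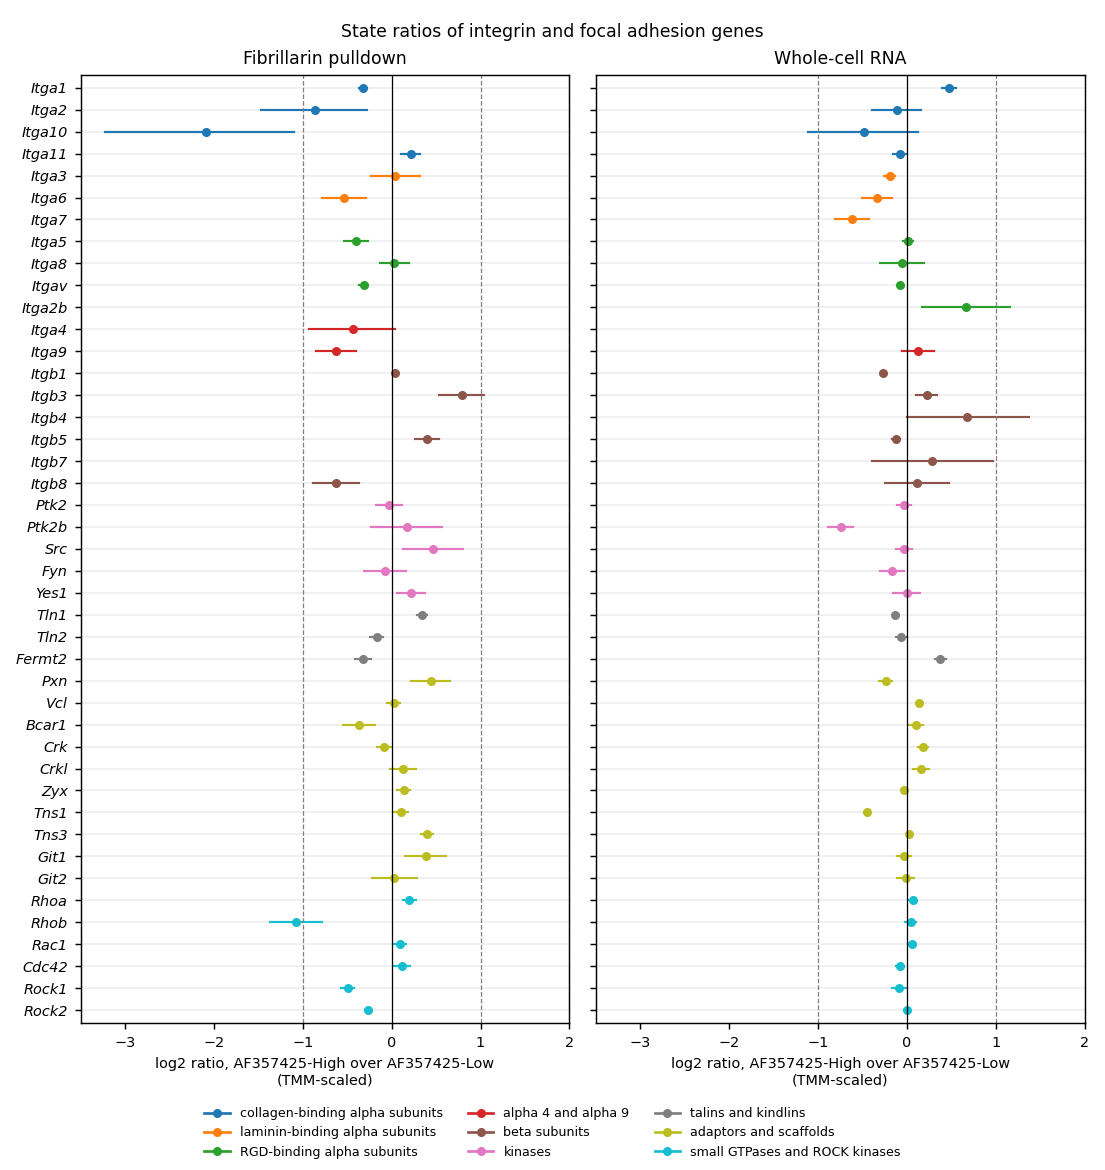
State ratios of the 43 members measured in at least 1 kind of library, in the pulldown (left) and in whole-cell RNA (right). The x axis is the log2 ratio of AF357425-High over AF357425-Low after TMM scaling, points are the ratios of 1 library against 1 library, bars are 95% counting intervals, colours are roles and dashed lines mark 2-fold. In the pulldown the whole interval of Itga10 lies left of the dashed line, and in whole-cell RNA no interval lies wholly beyond it.

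The collagen-binding alpha subunits pair with the beta 1 subunit. Itga10 (chromosome 3, 96645584 to 96664519, no overlapping gene), the subunit of a collagen receptor typical of cartilage, had 10 and 56 reads in the AF357425-High and AF357425-Low pulldowns, against 41 and 54 reads in whole-cell RNA of the same states. The High pulldown was the low library of the 4. Its state ratio was -2.08 (-3.22 to -1.10) in the pulldown and -0.49 (-1.11 to 0.12) in whole-cell RNA. The gene passed the filter in the pulldown only through the AF357425-Low library, which had 2.01 CPM against 0.387 CPM in AF357425-High, and it is absent from the 35 members that average at least 5 CPM. The 5 chondrocyte markers summed to 111 and 136 CPM in the AF357425-High and AF357425-Low pulldowns, against 262 and 185 CPM in whole-cell RNA, and Matn1 had 0 reads in all 4. Of 4 measured in whole-cell RNA, Cnmd at 2.73 (1.92 to 3.65) and Col2a1 at 1.24 (1.12 to 1.36) were called higher in AF357425-High. Over all genes 0.111% were. Cnmd passed the filter there only through AF357425-High, with 4.48 CPM against 0.645 CPM in AF357425-Low. Sox9 at 0.12 (0.05 to 0.19) and Acan at 0.84 (0.07 to 1.66) were not called. None of 3 measured was called in the pulldown. The part of chondrocyte-like cells in the Itga10 values was not tested.

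Itga1 (chromosome 13, 114958079 to 115101964), which binds collagen IV and I, had 6054 and 9970 reads in the AF357425-High and AF357425-Low pulldowns, against 3160 and 2135 reads in whole-cell RNA of the same states. The AF357425-Low library held more Itga1 in the pulldown and the AF357425-High library held more in whole-cell RNA, with ratios of -0.32 (-0.37 to -0.27) and 0.48 (0.40 to 0.56). The span of Itga1 holds the gene Pelo. Itga2, the other widespread collagen receptor subunit, had 35 and 84 reads in the pulldowns and 216 and 220 reads in whole-cell RNA, with state ratios of -0.86 (-1.47 to -0.28) and -0.12 (-0.39 to 0.16). Itga11, the fibroblast receptor for fibrillar collagen, was nearly level with 1305 and 1484 reads in the pulldowns and 2887 and 2872 reads in whole-cell RNA (0.22, 0.11 to 0.32, and -0.08, -0.16 to -0.01).

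Among the laminin-binding alpha subunits, Itga7 (chromosome 10, 128933421 to 128958286), best known from muscle, was almost missing from the pulldowns. It had 14 and 2 reads in the AF357425-High and AF357425-Low pulldowns, against 388 and 560 reads in whole-cell RNA. The whole-cell ratio was -0.62 (-0.81 to -0.43). In the pulldown it did not reach 1 CPM, and its unfiltered ratio of 3.21 (1.09 to 6.39) rests on those 14 and 2 reads. AF357425-High held more reads in the pulldown and AF357425-Low more in whole-cell RNA. Its span overlaps Mettl7b. Of the 5 skeletal muscle markers, Myod1, Myog and Ckm had 0 reads in all 4 libraries, and the list summed to 1.01 and 0.395 CPM in the pulldowns and 2.31 and 2.30 CPM in whole-cell RNA. Itga6, the partner of beta 1 or beta 4 on laminin, had negative ratios in both kinds of library, with -0.53 (-0.79 to -0.28) from 201 and 384 pulldown reads and -0.34 (-0.51 to -0.17) from 520 and 617 whole-cell reads. Itga3, a receptor subunit for laminin-332, had 198 and 254 reads in the pulldowns and 3852 and 4141 reads in whole-cell RNA, with ratios of 0.04 (-0.23 to 0.32) and -0.19 (-0.26 to -0.13).

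The RGD-binding alpha subunits recognise fibronectin, vitronectin and related ligands. Itga5, the classic fibronectin receptor subunit, had 708 and 1236 reads in the AF357425-High and AF357425-Low pulldowns and 5727 and 5337 reads in whole-cell RNA. The pulldown ratio was -0.40 (-0.54 to -0.27), whereas the whole-cell ratio was 0.01 (-0.04 to 0.07). Itgav, the partner of several beta subunits and an activator of latent TGF-beta, showed the same order, with -0.31 (-0.36 to -0.27) from 5551 and 9115 pulldown reads and -0.08 (-0.11 to -0.04) from 12889 and 12777 whole-cell reads. Itga8, a receptor subunit for nephronectin, was level in both, at 0.03 (-0.13 to 0.20) and -0.05 (-0.30 to 0.19). Itga2b, the platelet subunit, had 13 reads in each pulldown, against 96 and 57 reads in High and Low whole-cell RNA (0.66, 0.17 to 1.16), although all 4 platelet markers were at 0.

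Itga4 and Itga9 bind fibronectin splice forms, Vcam1 and tenascin. Itga9 had 248 and 506 reads in the AF357425-High and AF357425-Low pulldowns, against 522 and 450 reads in whole-cell RNA, with ratios of -0.63 (-0.85 to -0.41) and 0.12 (-0.06 to 0.31). Itga4 had 57 and 102 reads in the pulldowns and 17 reads in each whole-cell library, where it stayed under 1 CPM. Its pulldown ratio was -0.44 (-0.93 to 0.04). Of the 11 alpha subunits measured in the pulldown, 8 had a negative ratio there with TMM scaling, with a median of -0.40, and 11 with library totals.

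The beta subunits set which alpha chains can reach the surface. Itgb1, the common partner of most alpha subunits, had 10050 and 12918 reads in the AF357425-High and AF357425-Low pulldowns, against 25621 and 28910 reads in whole-cell RNA. Its ratios were 0.04 (0.00 to 0.08) in the pulldown and -0.26 (-0.29 to -0.24) in whole-cell RNA. Itgb3 (chromosome 11, 104608000 to 104670476, no overlapping gene), which forms the vitronectin receptor with alpha V, had the highest pulldown ratio of the measured members, 0.79 (0.54 to 1.04), from 302 and 231 reads. In whole-cell RNA it had 1390 and 1121 reads and 0.22 (0.11 to 0.33), so the ratio was positive in both kinds of library. Itgb5, another partner of alpha V, had 876 reads in each pulldown, which TMM scaling turns into 0.40 (0.26 to 0.54), and 7281 and 7445 reads in whole-cell RNA (-0.12, -0.17 to -0.08). Itgb8, the alpha V partner that activates latent TGF-beta, had 190 and 386 reads in the pulldowns and 144 and 125 reads in whole-cell RNA, with -0.62 (-0.88 to -0.37) and 0.11 (-0.24 to 0.47).

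The epithelial and leukocyte subunits were near or under the limits of these libraries. Itgb4, the hemidesmosome subunit, had 19 and 28 reads in the AF357425-High and AF357425-Low pulldowns, against 51 and 30 reads in whole-cell RNA (0.67, -0.00 to 1.38). Keratinocyte markers summed to at most 0.83 CPM in any library, with Krt14 and Krt1 at 0 in all 4. Itgb7, a lymphocyte subunit, had 10 and 5 reads in the pulldowns and 44 and 34 reads in whole-cell RNA (0.28, -0.40 to 0.97). Measured in neither kind of library were 9 members: Itgad, Itgae, Itgal, Itgam, Itgax, Itgb2, Itgb6, Fermt1 and Fermt3. They had between 0 and 15 reads per library, and Itgad had 0 in all 4. A count of 0 allows up to 0.116 and 0.108 CPM in the AF357425-High and AF357425-Low pulldowns and up to 0.136 and 0.138 CPM in whole-cell RNA.

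**Figure D2:**
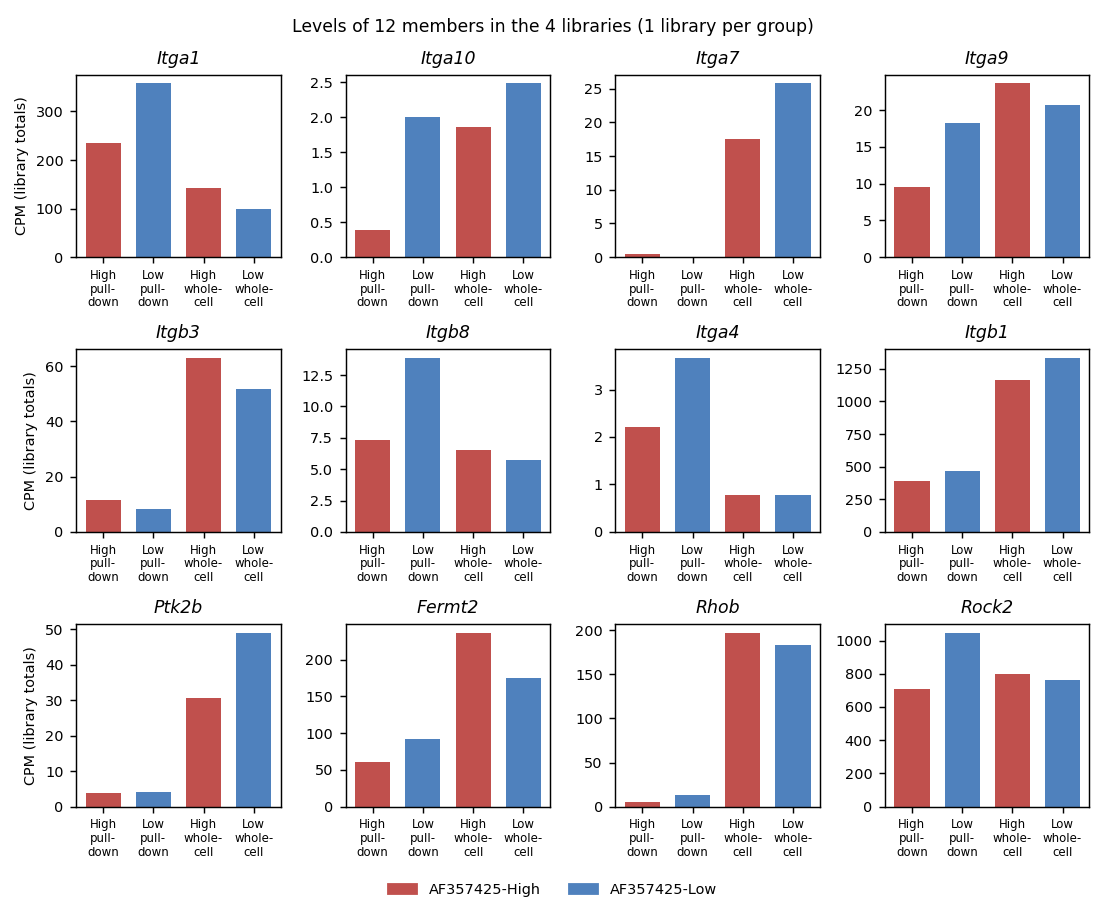
Levels of 12 members in the 4 libraries, in CPM of gene-assigned reads without further scaling, each panel with its own axis from 0. Bars are single libraries, ordered as High pulldown, Low pulldown, High whole-cell and Low whole-cell, and have no error bar because each group holds 1 library. Itga1, Itga4, Itgb8 and Rock2 reach in the Low pulldown a level above both whole-cell libraries, while Itga7 and Rhob are near 0 in the pulldowns.

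Among the kinases, Ptk2, which encodes FAK, the first kinase recruited to integrin tails, was level between the states. It had 690 and 931 reads in the AF357425-High and AF357425-Low pulldowns and 2511 and 2413 reads in whole-cell RNA, with -0.03 (-0.18 to 0.11) and -0.03 (-0.11 to 0.05). Its relative Ptk2b (chromosome 14, 66153257 to 66281100), which encodes the calcium-responsive kinase PYK2, had the lowest whole-cell ratio of all measured members, -0.74 (-0.89 to -0.60), from 676 and 1064 reads. The pulldowns held 98 and 115 Ptk2b reads, a ratio of 0.17 (-0.23 to 0.57), whose interval spans 0. The span of Ptk2b overlaps only predicted genes.

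The Src family kinases phosphorylate FAK and the adaptor p130Cas. Src had 155 and 148 reads in the AF357425-High and AF357425-Low pulldowns and 2095 and 2014 reads in whole-cell RNA, with 0.47 (0.13 to 0.80) and -0.03 (-0.12 to 0.06). Fyn and Yes1 had pulldown ratios of -0.08 (-0.31 to 0.16) and 0.22 (0.06 to 0.38) and whole-cell ratios of -0.17 (-0.30 to -0.03) and -0.00 (-0.16 to 0.15). All 5 kinases thus had point ratios at or under 0 in whole-cell RNA, and for Ptk2, Src and Yes1 the interval includes 0.

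The activators that bind beta tails are the talins and kindlins. Tln1 had 4544 and 4727 reads in the AF357425-High and AF357425-Low pulldowns, against 24383 and 25100 reads in whole-cell RNA, with ratios of 0.34 (0.28 to 0.40) and -0.13 (-0.16 to -0.11). Fermt2 (chromosome 14, 45458792 to 45530310), the kindlin of fibroblasts, had 1557 and 2572 pulldown reads and 5230 and 3786 whole-cell reads. Its ratios were -0.32 (-0.41 to -0.23) and 0.38 (0.31 to 0.44), opposite in sign to those of Tln1, whose pulldown ratio with library totals was 0.05 (-0.01 to 0.11), an interval that includes 0. Tln2, the second talin, had -0.17 (-0.24 to -0.09) and -0.07 (-0.12 to -0.01). Fermt3, the kindlin of blood cells, had 0 and 5 reads in the pulldowns and 10 and 14 reads in whole-cell RNA.

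All 10 adaptors and scaffolds lay within 1.5-fold in both kinds of library. In the pulldown 8 of 10 had positive ratios with TMM scaling and 3 of 10 with library totals, the highest with TMM being Pxn, the paxillin gene, with 352 and 343 reads (0.44, 0.22 to 0.66). In whole-cell RNA Pxn had 3004 and 3334 reads (-0.24, -0.31 to -0.17). Bcar1, which encodes the Src substrate p130Cas, had the lowest pulldown ratio, -0.36 (-0.54 to -0.19), from 416 and 707 reads, and a whole-cell ratio of 0.10 (0.01 to 0.18). Its partner Crk, an SH2 and SH3 adaptor, had -0.09 (-0.17 to -0.01) and 0.18 (0.12 to 0.24), and Crkl had 0.13 (-0.02 to 0.27) and 0.16 (0.07 to 0.25).

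The tensins link integrins to actin in mature adhesions. Tns1 had 2357 and 2884 pulldown reads (0.11, 0.03 to 0.19), against 10452 and 13396 whole-cell reads, the lowest whole-cell ratio of the adaptors at -0.45 (-0.49 to -0.41). Tns3 had 0.40 (0.33 to 0.47) in the pulldown and was level in whole-cell RNA at 0.02 (-0.02 to 0.06). The vinculin gene Vcl, whose protein reinforces the talin to actin link, had 0.02 (-0.05 to 0.10) in the pulldown and 0.14 (0.11 to 0.17) in whole-cell RNA. The zyxin gene Zyx, a sensor of tension in adhesions, had 0.13 (0.06 to 0.21) and -0.04 (-0.07 to -0.01). Git1 and Git2, scaffolds that bring Rac regulators to paxillin, had 0.38 (0.16 to 0.61) and 0.03 (-0.23 to 0.29) in the pulldown and -0.03 and -0.02 in whole-cell RNA.

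Among the small GTPases and their kinases, Rhob (chromosome 12, 8497661 to 8500009, no overlapping gene) stood apart in the pulldown. This short, stress-inducible GTPase gene had 133 and 369 reads in the AF357425-High and AF357425-Low pulldowns, against 4356 and 3974 reads in whole-cell RNA. Its pulldown ratio was -1.07 (-1.37 to -0.78) and its whole-cell ratio 0.04 (-0.02 to 0.10). The 2-fold line falls inside the pulldown interval with TMM scaling, but with library totals the ratio was -1.37 (-1.66 to -1.08) and Rhob was called lower, where 5.66% of all genes were.

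Rhoa, Rac1 and Cdc42, the main switches of contraction, lamellipodia and filopodia, had pulldown ratios of 0.20 (0.12 to 0.28), 0.09 (0.02 to 0.17) and 0.11 (0.02 to 0.21). With library totals the ratios were -0.09 (-0.17 to -0.02), -0.20 (-0.28 to -0.13) and -0.18 (-0.28 to -0.09), so their direction turned with the scaling. Their whole-cell ratios were 0.06, 0.06 and -0.08. The GTPase effector kinases Rock1 and Rock2 had pulldown ratios of -0.49 (-0.56 to -0.42) and -0.27 (-0.30 to -0.24). Rock1 had 2335 and 4333 reads in the High and Low pulldowns, and Rock2 18330 and 29154. In whole-cell RNA they were level at -0.08 (-0.17 to -0.00) and -0.00 (-0.03 to 0.03).

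Set side by side over the 38 members measured in both kinds of library, the states differed in opposite directions in 23. How many of all genes had point ratios of opposite sign was not counted, so the 23 have no background to be read against. Positive ratios made up 49.2% of all genes measured in the pulldown and 48.2% of those measured in whole-cell RNA. Among the 23 members, both intervals excluded 0 for 12. These were Itga1, Itga11, Itgb1, Itgb5, Tln1, Fermt2, Pxn, Bcar1, Crk, Zyx, Tns1 and Cdc42, and over all 10366 genes measured in both, 13.0% did the same. Counting intervals are narrower for genes with more reads, and the members were not matched to all genes by depth. The 12 therefore cannot be read as more frequent among the members. Under every scaling tried, 4 members kept opposite intervals, Itga1, Fermt2, Bcar1 and Crk, beside 8.31% of all genes.

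**Figure D3:**
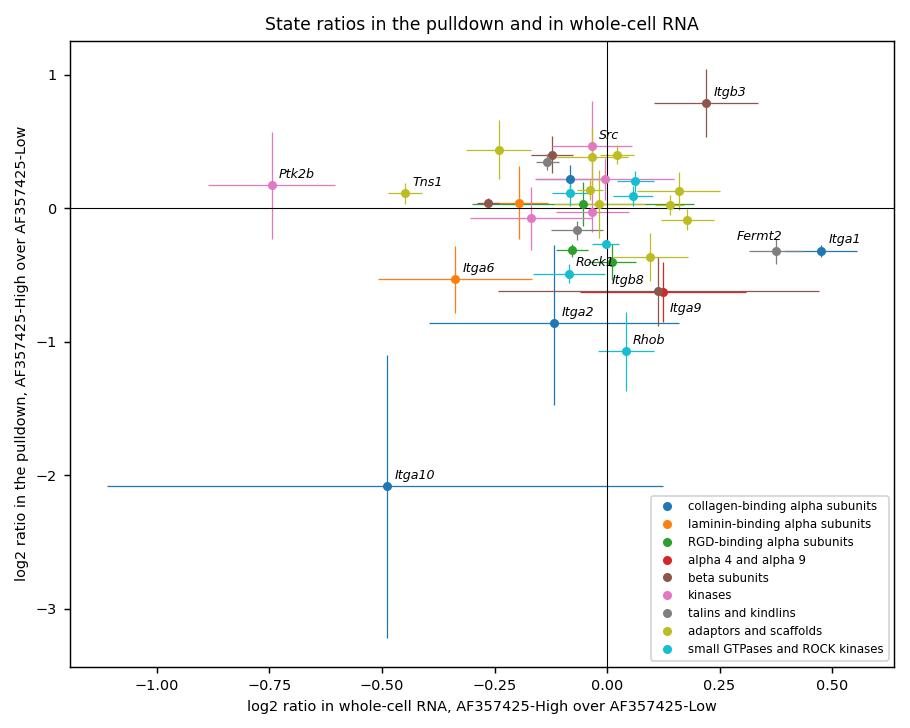
State ratios of the 38 members measured in both kinds of library. The x axis is the log2 ratio of AF357425-High over AF357425-Low in whole-cell RNA and the y axis the same ratio in the pulldown, after TMM scaling, with 95% counting intervals as bars and roles as colours. Itga1 and Fermt2 sit in the lower right, with positive whole-cell and negative pulldown ratios, while Itga10 lies far below the rest at -2.08 in the pulldown.

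How far the ratio of pulldown to whole-cell RNA differed between AF357425-High and AF357425-Low was computed for the 41 members with at least 10 reads in each library. The median difference was 0.00, beside 0.00 over all 11356 genes. No member was called in either direction, where 2.65% of genes were called higher and 1.66% lower (4.31% in either direction). At the 1.5-fold line Itga1, Fermt2 and Rhob were lower and none was higher, where 5.94% of genes were lower and 7% higher. Itga10 had the lowest value, -1.60 (-2.73 to -0.46), followed by Rhob at -1.11 (-1.41 to -0.82). Itga1 had -0.79 (-0.89 to -0.70) and Fermt2 -0.70 (-0.81 to -0.59). At the other end stood Ptk2b at 0.92 (0.50 to 1.33) and Pxn at 0.68 (0.45 to 0.91). With library totals, Rhob and Itga1 were called lower, where 5.09% of all genes were lower and 1.19% higher.

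Recovery in the pulldown was read from the ratio of pulldown to whole-cell RNA within a state, by library totals. On this scale the medians of all genes were under 0, and they were -0.70 in AF357425-High and -0.43 in AF357425-Low with mitochondrial ribosomal RNA left out of the totals, so the members are read against the median of all genes. In AF357425-High the members had a median of -2.23 beside -2.15 for all genes, and 35 of 43 were called lower and none higher, where 74.1% of genes were lower and 2.41% higher, 76.5% in all. In AF357425-Low the median was -1.74 beside -1.75, and 27 of 42 were lower and 2 higher, where 62.4% were lower and 2.58% higher, 64.9% in all. At the 1.5-fold line 36 members were lower and 2 higher in AF357425-High (82.8% and 3.16% of genes, 86% in all), and 32 and 4 in AF357425-Low (73% and 3.95%, 76.9% in all). The members' medians lay within 0.08 of those of all genes, and the members themselves ranged widely, between -5.26 and 1.52 in AF357425-High and between -8.49 and 2.23 in AF357425-Low.

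The following members were picked after their values were seen, as the 6 highest and 6 lowest by the mean of both ratios. Highest were Itga4, with 1.52 (0.72 to 2.39) in AF357425-High and 2.23 (1.48 to 3.06) in AF357425-Low, and Itga1, with 0.71 (0.65 to 0.77) and 1.86 (1.80 to 1.93). Both were called higher in AF357425-Low. Itga4 passed the filter only through the pulldowns, with 0.770 and 0.784 CPM in High and Low whole-cell RNA. Itga8 followed with 0.74 and 1.01, Itgb8 with 0.17 and 1.27, Rock2 with -0.17 and 0.45 and Rock1 with -0.34 and 0.43. On this scale the median of all genes was also less negative in AF357425-Low. After TMM scaling the difference between the states was 0.08 (-0.21 to 0.38) for Itga8 and -0.35 (-1.42 to 0.73) for Itga4, intervals that include 0. It was -0.79 (-0.89 to -0.70) for Itga1 and -0.74 (-1.16 to -0.31) for Itgb8. For Rock1 and Rock2 it was -0.41 (-0.51 to -0.30) and -0.27 (-0.31 to -0.22). These intervals exclude 0.

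Lowest were Itga7, at -5.02 (-5.90 to -4.26) in AF357425-High and -8.49 (-11.54 to -6.63) in AF357425-Low, and Rhob, at -5.26 (-5.52 to -5.01) and -3.79 (-3.95 to -3.63). Itga7 passed the filter only through whole-cell RNA, with 0.541 and 0.0719 CPM in the High and Low pulldowns. Its value in AF357425-Low rests on 2 pulldown reads. Itga3 had -4.51 and -4.39, Src -3.98 and -4.13, Pxn -3.32 and -3.64 and Itgb5 -3.28 and -3.45. The 3 laminin-binding alpha subunits had medians of -4.51 and -4.39, and the 10 adaptors and scaffolds -2.80 and -2.45, with every adaptor negative in both states. The 13 measured alpha subunits had medians of -1.60 and -1.04.

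Across the members, which share their libraries and depth, the pulldown-to-whole-cell ratio tended to be less negative for genes with a longer span. Over 43 members in AF357425-High the correlation with log2 span had a Pearson r of 0.522 and a Spearman coefficient of 0.493, and over 42 members in AF357425-Low 0.384 and 0.386. Over protein-coding genes it was weaker, 0.208 and 0.244 in AF357425-High and 0.258 and 0.274 in AF357425-Low. The 20 members under 50 kb had a median of -2.73 in AF357425-High, against -2.31 for 7828 coding genes of that span. The 10 members of 50 to 100 kb had -1.52 against -1.73, and the 13 members of 100 kb and over had -1.99 against -1.76.

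Overlap with other genes moved with span. Every member whose ratio was above 0, 4 in AF357425-High and 6 in AF357425-Low, overlaps another annotated gene, and these were all among the 6 highest named above. Itga7, the lowest member in AF357425-Low at -8.49, overlaps other genes as well. Members that overlap another gene had a median span of 89.0 kb, against 32.4 kb for the 19 that do not in AF357425-High. Their median ratios were -1.98 against -2.37 in AF357425-High and -1.32 against -2.28 in AF357425-Low. Among coding genes overlap made no such split, with -2.13 in each class in AF357425-High and -1.70 against -1.72 in AF357425-Low. Without the overlapping members, the correlation with span was 0.517 and 0.307 over 19 members in AF357425-High and 0.200 and 0.0671 over 18 in AF357425-Low. The part of overlapping transcripts in these ratios was not tested.

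**Figure D4:**
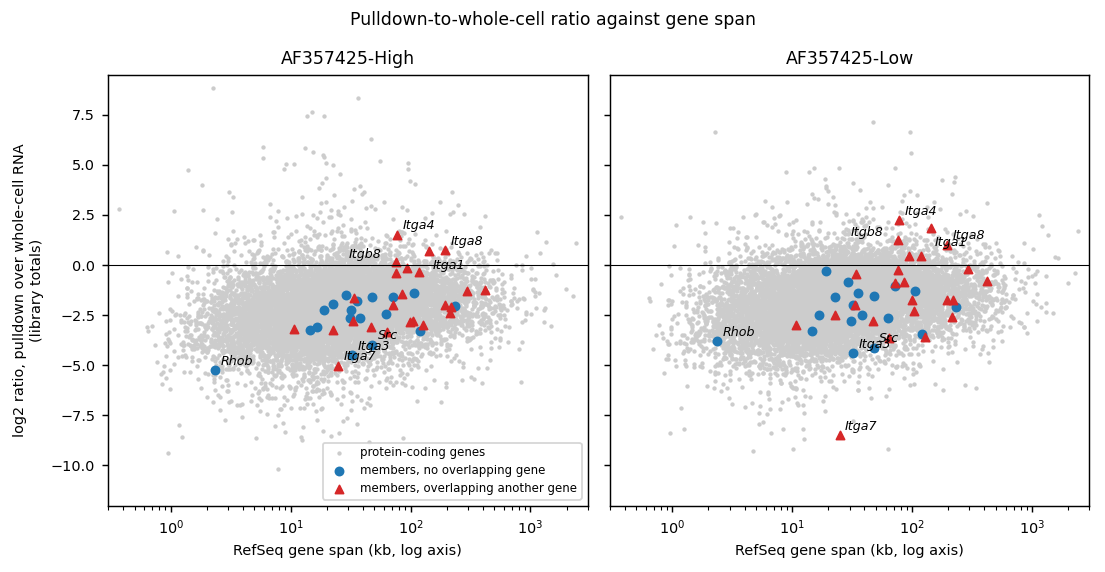
Ratio of pulldown to whole-cell RNA (log2, library totals, y axis) against the RefSeq span of the gene in kb (log x axis), in AF357425-High (left) and AF357425-Low (right). Grey points are protein-coding genes, blue circles members that overlap no other gene and red triangles members that do, each from 1 library against 1 library. Itga4, Itga1, Itga8 and Itgb8 lie above 0 in both states, and the lowest members are Rhob at -5.26 in AF357425-High and Itga7 at -8.49 in AF357425-Low.

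Other genes of the pathway were taken from a list of 72 further adhesion genes, among them Ilk, the alpha-actinins, filamins, PAK kinases and syndecans. In the pulldown none of 67 measured was called in either direction, where 6.32% of all genes were. Their median was 0.11, beside -0.01 for all genes. Among the highest were Cib1, a calcium-binding protein of the alpha IIb tail, at 1.76 (0.89 to 2.69) from 41 and 16 reads and Tns4 at 0.92 (0.21 to 1.64). Cib1 passed the filter there only through AF357425-High, with 1.59 CPM against 0.575 CPM in AF357425-Low. The lowest were the collagen receptor kinase Ddr2 at -0.70 (-0.74 to -0.65), Sos1 at -0.65 (-0.78 to -0.52) and Sharpin, an inhibitor of integrin activation, at -0.57 (-1.05 to -0.11). In whole-cell RNA none of 71 was called, where 0.244% of all genes were, and their median was -0.02, beside -0.01 for all genes. Elmo1, part of a Rac activator, had the lowest ratio at -1.41 (-2.05 to -0.80) from 32 and 80 reads, then Arhgap26 at -0.58 (-1.08 to -0.08) and the tetraspanin Cd151 at -0.55 (-0.61 to -0.50). Efs at 0.72 (0.12 to 1.35), Lims2 at 0.43 (0.07 to 0.80) and Nck2 at 0.31 (0.13 to 0.49) were the highest.

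Of 29 integrin ligand genes, 28 were measured in each kind of library. In the pulldown, Thbs1, the matrix glycoprotein thrombospondin 1, was called higher at 1.24 (1.22 to 1.26) and Icam1, the ligand of leukocyte integrins, lower, where 3.43% and 2.9% of all genes were. Thbs1 had 66745 and 37318 reads in the High and Low pulldowns, against 307618 and 253655 in whole-cell RNA (0.19, 0.18 to 0.20). Icam1 had 16 and 104 reads in the AF357425-High and AF357425-Low pulldowns (-2.30, -3.16 to -1.53), against 349 and 276 in whole-cell RNA (0.25, 0.02 to 0.48). Like Itga10, it passed the filter in the pulldown only through AF357425-Low, with 0.619 CPM in AF357425-High against 3.74 CPM in AF357425-Low. In whole-cell RNA no ligand was called and 18 of 28 were negative, with a median of -0.06. The basement membrane gene Nid1 had 28636 and 19543 pulldown reads, a ratio of 0.95 (0.93 to 0.98), next after Thbs1.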

How the data were processed

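Gene-level fragment counts, not normalized, are what the authors deposited. Per the submitters' processing notes, cutadapt 2.4, STAR 2.6.0c, HTSeq 0.9.1 and StringTie 1.3.4 were used with GRCm38. No source used here gives the gene annotation or the strand setting. HTSeq summary lines were left out of library totals. Symbols were paired with 55450 gene IDs. Positions, spans and overlaps on either strand came from RefSeq GRCm38.p6 by symbol, and no exon lengths were used, so levels were not compared between genes.

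Ratios were computed over the whole tables. TMM factors (edgeR 4.0.16, R 4.3.3) were 0.903 and 1.11 in the pulldown and 1.02 and 0.978 in whole-cell RNA, for AF357425-High and AF357425-Low. Pulldown and whole-cell RNA were compared by library totals. Intervals were Clopper-Pearson for a pair of counts and normal, on log ratios, for the change between states (scipy 1.17.1). The floor for a count of 0 was 3 reads. On tables simulated with counting error only, in which 200 genes were changed, 94.0% to 97.0% of genes changed 4-fold and 79.0% to 86.0% of those changed 3-fold were recovered over the pairwise comparisons, and no unchanged gene was called. Members, roles and lists were chosen with earlier results of these data known. Every measured member could be named. Pathway genes and ligands were not listed for pulldown against whole-cell RNA, nor were ligands for the change between states. Pathway genes past the line in that change were named. In the state comparisons the 3 highest and 3 lowest other pathway genes were named, and each ligand past the line. A pathway gene that this rule names is not reported here. Nid1 was named after its value was seen. Alternatives were other scalings, filters and call lines.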

Additional observations from a re-analysis of the deposited data

Results flagged for a closer look

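Each of 4 members had its AF357425-High to AF357425-Low ratio on one side of 0 in the pulldown and on the other side in whole-cell RNA, with both counting intervals clear of 0 under every scaling tried. Over all genes measured in both kinds of library, 8.31% did so, and 4 of the 38 members is a share near that. Each group holds 1 library, so this difference between the kinds of library was not tested. For Itga1 the log2 ratio was -0.32 in the pulldown and 0.48 in whole-cell RNA. Fermt2 had -0.32 and 0.38. For Bcar1 the ratios were -0.36 and 0.10, and for Crk -0.087 and 0.18. Itga1, Fermt2 and Bcar1 overlap another annotated gene, while Crk does not.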

How the results depend on the processing

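No paired analysis was possible because each group holds 1 library. In whole-cell RNA the split of all called genes was 15 higher and 18 lower with TMM and 18 higher and 14 lower with library totals, and no member was called under any scaling or filter tried. All called genes there numbered 33, against 64 without the filter, 15 at a mean of 5 CPM and 136 at the 1.5-fold line, where 1 member, Ptk2b, was lower. In the pulldown, library totals turned 368 higher and 311 lower genes into 238 and 608 and called 2 members lower, Itga10 and Rhob. The 1.5-fold line also gave 2 lower members (1671 of all genes), a mean of at least 5 CPM gave 0 (302 of all genes), and no filter gave 1 higher member, Itga7, from 14 against 2 reads (1688 of all genes).

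Pulldown against whole-cell calls depend on the scaling. In AF357425-High, members called higher and lower numbered 7 and 10 with TMM and with median-of-ratios factors, 6 and 15 with totals without mitochondrial ribosomal RNA, and 7 and 6 with the median of all genes at 0, against 0 and 35. Of all genes, 13.2% and 22.6% were called higher and lower with TMM and 14.2% and 21.5% with median-of-ratios factors. The shares were 8.34% and 32.5% without mitochondrial ribosomal RNA, and 18.5% and 16.6% with the median at 0, against 2.41% and 74.1%. In AF357425-Low the members numbered 8 and 13, 8 and 12, 6 and 15, and 8 and 9 in the same order, against 2 and 27. Of all genes there, 13.6% and 26.3%, 14.4% and 25.3%, 11.8% and 28.6%, and 19.7% and 19.9% were called, against 2.58% and 62.4%. All genes called fell to between 4494 and 5214 in AF357425-High and between 5054 and 5159 in AF357425-Low, from 9767 and 8295. The 1.5-fold line gave 2 and 4 higher members, and a mean of at least 5 CPM left 1 higher in AF357425-Low. Members that overlap no other gene, a choice made after seeing the data like the centring on the median, held 19 lower in AF357425-High and 0 higher and 15 lower in AF357425-Low. The members' median minus that of all genes, -0.08 and 0.01 as reported, was -0.22 and -0.53 without overlapping members, 0.10 and -0.15 without the filter, and -0.17 in AF357425-Low at 5 CPM. For the change of the ratio, library totals called 2 members lower, Itga1 and Rhob, and turned 301 higher and 189 lower of all genes into 135 and 578, and the median difference was 0.22 without overlapping members, against 0.00. At 50 reads per library 257 of all genes were called, against 490, and the cause of these shifts was not tested. Few reads stand behind the leukocyte subunits, Itga10 and Itga7 in the pulldown, and the cause was not tested.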
